A study of Mus musculus with 24 samples.

Results

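The genes described here are 10 genes by which catecholamine and serotonin neurons are recognized: Th, Ddc, Dbh, Tph2, Slc6a2, Slc6a3, Slc6a4, Fev, Lmx1a and Nr4a2. They were chosen by name, and all 10 were among the 22889 entries of the RPKM table (reads per kilobase of transcript, scaled to the mapped reads of each sample). The table covers 24 bulk samples of mouse embryonic stem cell (mESC) cultures, in 4 groups of 6. Oculomotor neuron (OMN) cultures came from an Islet1-GFP/NesEPhox2a mESC line, which carries a Phox2a transgene under the nestin enhancer and therefore drives it in neural progenitors, and were patterned for 5 days with 250 nM of the Smoothened agonist SAG and 100 ng/ml of Fgf8. Spinal (SC) motor neuron cultures came from an Hb9-GFP line without that transgene and were patterned for 5 days with 500 nM SAG and 100 nM retinoic acid. Each culture was separated by fluorescence-activated cell sorting into a GFP-positive (GFP+) and a GFP-negative (GFP-) fraction, and all samples were labelled as controls. Line, reporter, transgene and patterning factors changed together between the cultures, so that their parts in any difference cannot be told apart, and each culture type rested on 1 line. The labels number the samples of a group but do not say whether they came from separate differentiations, so p values measure the spread between these samples.

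Catecholamines are made from tyrosine. Tyrosine hydroxylase (Th) forms L-DOPA, aromatic L-amino acid decarboxylase (Ddc) turns it into dopamine, and dopamine beta-hydroxylase (Dbh) turns dopamine into noradrenaline inside the vesicle. Serotonin is made from tryptophan by tryptophan hydroxylase (Tph2 in neurons) and the same Ddc. The plasma membrane transporters Slc6a2, Slc6a3 and Slc6a4 take up noradrenaline, dopamine and serotonin, Fev (Pet1) specifies serotonin neurons, and Lmx1a and Nr4a2 (Nurr1) act in the development of midbrain dopamine neurons. Oculomotor neurons are cholinergic and lie next to the midbrain dopamine neurons, and Phox2a, which takes part in specifying them, also acts in noradrenergic neurons and drives Dbh there.

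The sequence around the transcription start is shown for Dbh and Th, the only 2 members with a call in any comparison below. Both come from the RefSeq promoters of GRCm38.p6, which held 9 of the 10 members, and each runs 5′ to 3′ over 300 bases, of which 250 precede the start. Capitals mark the homeodomain core ATTA, read on both strands as ATTA or TAAT, and the palindromic cyclic AMP response element TGACGTCA. The 2 motifs share no base in these windows. The Dbh promoter lies on the plus strand at chr2:27165257-27165556 and the Th promoter on the minus strand at chr7:142899946-142900245.
Dbh: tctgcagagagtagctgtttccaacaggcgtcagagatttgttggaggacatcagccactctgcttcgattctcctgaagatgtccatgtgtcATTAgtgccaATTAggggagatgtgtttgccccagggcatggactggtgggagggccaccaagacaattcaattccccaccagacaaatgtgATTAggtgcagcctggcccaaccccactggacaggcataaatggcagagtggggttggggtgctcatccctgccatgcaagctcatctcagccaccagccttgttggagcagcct
Th: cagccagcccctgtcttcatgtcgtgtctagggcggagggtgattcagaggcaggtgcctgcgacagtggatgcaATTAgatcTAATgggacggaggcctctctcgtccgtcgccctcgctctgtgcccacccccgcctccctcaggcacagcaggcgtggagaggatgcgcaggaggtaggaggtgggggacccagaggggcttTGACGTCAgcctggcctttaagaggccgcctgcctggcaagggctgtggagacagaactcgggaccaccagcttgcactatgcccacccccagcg
The Dbh window held 3 ATTA matches, of which the one nearest to the start began at position -65, and no TGACGTCA. The Th window held 2 ATTA matches and 1 TGACGTCA, which began at position -45. An ATTA match was present in 58% of all 32851 promoters, 34.1% held at least 2, and 1.79% held TGACGTCA. The share with at least 3 ATTA matches was not computed. Among the members without a call, Tph2 held 4 and Ddc 3 in 1 of its windows, and the rest held fewer. A match describes these letters and does not show that a protein binds them.

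Most of the 10 genes were at a few RPKM or less, and several rested on few reads. The depth recovered from the steps of the RPKM values was 752529 to 4642207 reads in the 16 samples numbered 1 to 4 and 4822576 to 7675428 in the 8 samples numbered 5 and 6. All 122 member values above 0 came out as whole reads within 0.1 read, so that read numbers can be given. Over the 24 samples these were 2632 reads for Ddc, 1300 for Lmx1a, 572 for Th, 412 for Nr4a2, 139 for Dbh, 52 for Tph2, 40 for Fev, 28 for Slc6a4, 23 for Slc6a3 and 12 for Slc6a2. Reads from polymerase chain reaction without molecular identifiers are not independent molecules, so limits set by a count of 0 cover counting error only. In the labelled motor neurons the summed level of 7 motor neuron markers was 193.9 to 398.6 RPKM in OMN GFP+ and 57.1 to 290.9 RPKM in SC GFP+ samples. One sample labelled SC GFP- (number 4) held 69.4 RPKM of Mnx1 (Hb9), the gene that drives its reporter, within the 43.1 to 149.2 RPKM of the SC GFP+ samples. In SC GFP- sample 2 the 10 highest genes took 76.3% of the summed RPKM, against 10.4% to 31.7% in the other 23. Calls are therefore also given without these 2 samples.

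Dbh and Th, both enzymes of noradrenaline synthesis, were the members that passed the test in at least 1 comparison. Differences were taken on log2(RPKM + 1) with limma over all genes and called at a Benjamini-Hochberg adjusted p under 0.05. Between OMN GFP+ and SC GFP+ no member was called of 8 tested, where 0.603% of all genes tested were called. Slc6a2 and Fev were above 0 in fewer than 2 of those 12 samples and were not tested. No member was called of 10 between the GFP- fractions, where the background was 0.96%. Between OMN GFP+ and OMN GFP-, 1 member of 10 (Dbh, higher in GFP+) was called, with a background of 6.15%. Between SC GFP+ and SC GFP-, 1 member of 10 (Th, higher in GFP+) was called, with a background of 1.23%. The step between fractions differed between the cultures for 1 member of 10 (Dbh), where 0.32% of genes were called. The median log2 difference of the members tested was 0.18, -0.14, 0.10, -0.13 and 0.29 in these 5 comparisons, beside -0.04, -0.04, 0.00, 0.00 and 0.01 over all genes. All values below are relative abundances in bulk samples, in which fewer cells of a type and less RNA per cell cannot be told apart.

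**Figure D1:**
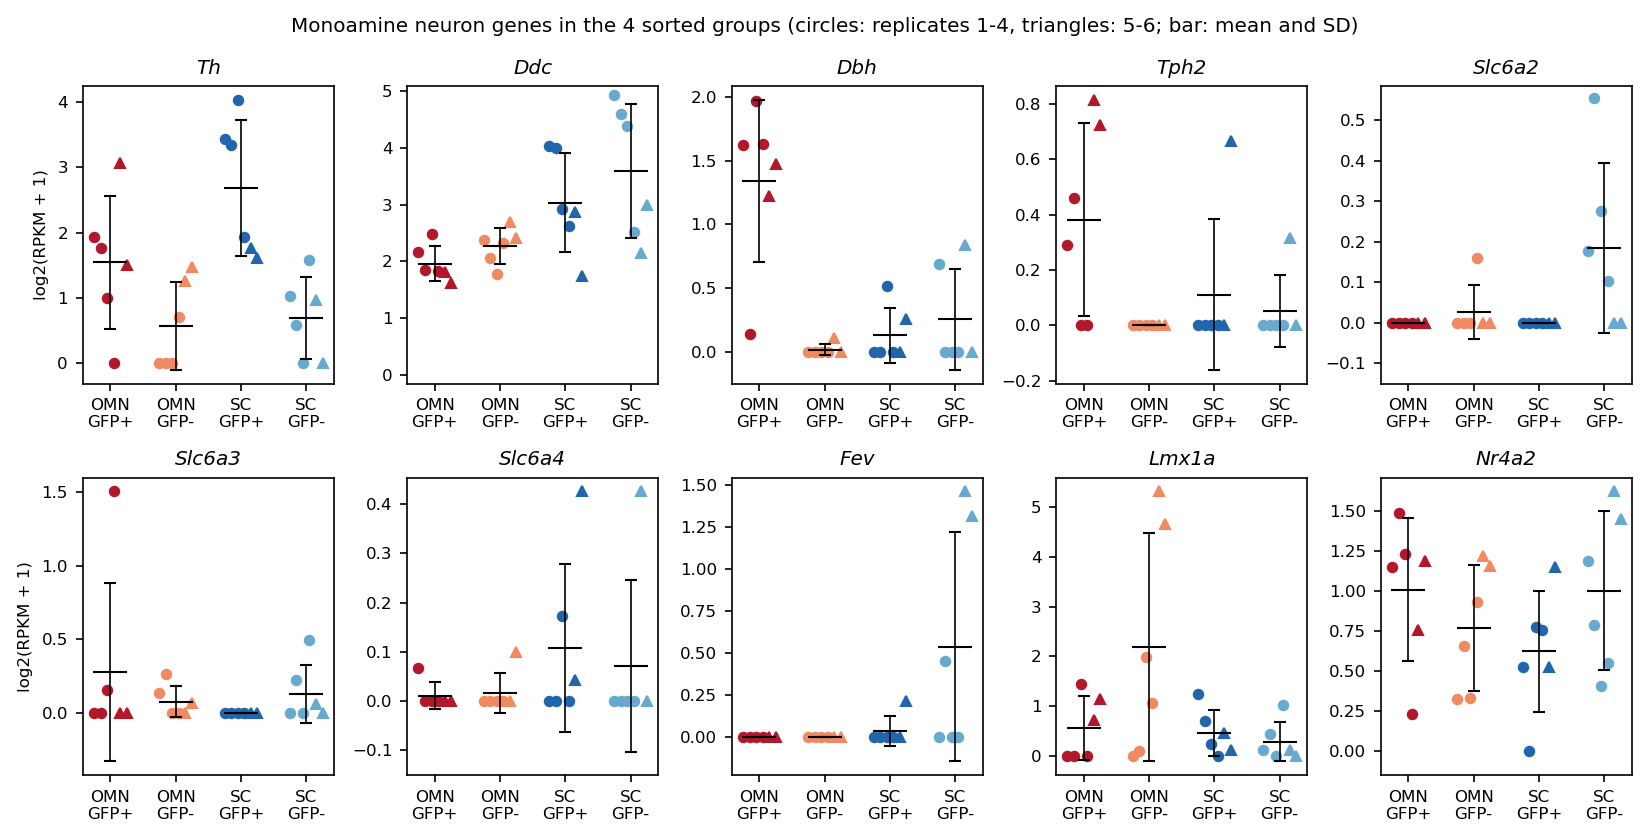
Levels of the 10 monoamine neuron genes, as log2(RPKM + 1), in the 6 samples of each of the 4 groups, with circles for samples 1 to 4, triangles for the deeper samples 5 and 6, and the black bar for the mean with its SD. Dbh is at 1.34 to 2.90 RPKM in 5 of 6 OMN GFP+ samples and near or at 0 in the other and in OMN GFP-, Th is higher in every SC GFP+ than in any SC GFP- sample, and Lmx1a is high in 2 OMN GFP- samples only. Each panel has its own vertical scale.

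Dbh was above the limit of 3 reads in 5 of 6 OMN GFP+ samples and in no OMN GFP- sample. The gene lies at chr2:27165233-27183200 on the plus strand in the GENCODE M21 annotation of GRCm38. Its level in OMN GFP+ was 0.101 RPKM at the lowest, 1.93 at the median and 2.90 at the highest, from 111 reads in all. In OMN GFP- a single read was found among the 6 samples, in sample 5 (0.0770 RPKM). The other 5 were listed at 0, where 3 reads would have stood for 0.180 to 0.826 RPKM. The listed values of the 2 fractions did not overlap, as was the case for 6.52% of the genes tested, but the lowest OMN GFP+ and the highest OMN GFP- value are 1 read each, so that a separation of all 12 samples is not shown at this depth. The difference was 1.33 ± 0.22 (SE) on the log2 scale (n = 6 per group, limma adjusted p = 0.000437), and an exact two-sided permutation test of Dbh alone gave p = 0.00216, the smallest that 6 against 6 samples allow. With the signs of the 6 differences between same-numbered fractions permuted instead, the exact p was 0.03125, the smallest that 6 pairs allow. Both p values use the order set by these single reads. No fold is given, since the lower group rests on 1 read.

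The lowest OMN GFP+ value of Dbh came from sample 2, with 1 read, and the other 5 samples held 8 to 33 reads and 1.34 to 2.90 RPKM. In SC GFP+ samples Dbh was listed at 0 in 4 of 6 and reached 0.429 RPKM in sample 3 (2 reads) and 0.194 RPKM in sample 6 (4 reads). Only OMN GFP+ sample 2 fell into the range of the SC GFP+ samples. The OMN GFP+ minus SC GFP+ difference was 1.21 ± 0.28 (SE) and did not pass (limma adjusted p = 0.0823). The exact permutation p of Dbh alone, not adjusted for the 35 such tests computed over members and pairs of groups, was 0.00649. The same difference passed in 1 of 12 omissions of a sample, without OMN GFP+ sample 2 (1.46, limma adjusted p = 0.0121). Of 8 other alternatives it passed in 1, a fit of all 24 samples (limma adjusted p = 0.00292). That fit shares its spread with the GFP- groups, where Dbh was mostly listed at 0. In the settings that did not pass the limma adjusted p was up to 0.487. In SC GFP- samples Dbh reached 0.611 RPKM in sample 1 (6 reads) and 0.790 RPKM in sample 5 (15 reads) and was listed at 0 in the other 4. The step from GFP- to GFP+ was thus 1.45 ± 0.31 (SE) larger in OMN than in SC cultures on the log2 scale (limma adjusted p = 0.0370). That call was lost when any one of 17 of the 24 samples was left out (differences 1.33 to 1.69, adjusted p 0.000465 to 0.0814 over all 24 omissions). It was kept without OMN GFP+ sample 2 or 5, SC GFP+ sample 3, or SC GFP- sample 2, 3, 4 or 6.

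Other cell markers moved with Dbh between the OMN fractions, where 6.15% of all genes were called. Of 7 motor neuron markers 5 were higher in OMN GFP+ than in OMN GFP- (Isl1, Isl2, Chat, Slc18a3 and Tbx20), and their summed level was 1.03 to 4.31 RPKM in OMN GFP-. Of 4 pluripotency markers 3 were lower in OMN GFP+ (Nanog, Zfp42 and Dppa5a), and these 4 summed to 0.315 to 252.6 RPKM in OMN GFP+ against 666.3 to 9856 RPKM in OMN GFP-. Of 6 neural progenitor markers 1 was lower in OMN GFP+ (Sox2), and of 4 glia markers 1 was higher (the myelin gene Mbp). The sums of both lists overlapped between the fractions. The progenitor list summed to 112.7 to 466.0 RPKM in OMN GFP+ and 132.3 to 306.9 RPKM in OMN GFP-. The glia list summed to 1.52 to 7.04 RPKM in OMN GFP+ and 1.20 to 12.2 RPKM in OMN GFP-. The part of these cells in the Dbh difference was not tested.

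Th was higher in the GFP+ than in the GFP- fraction of the spinal cultures. The gene model spans chr7:142892752-142931128 on the minus strand in GENCODE M21. In SC GFP+ the lowest, median and highest levels were 2.04, 5.95 and 15.4 RPKM, and in SC GFP- they were 0, 0.730 and 1.99 RPKM. Samples 1 to 3 of SC GFP+ held 9.09 to 15.4 RPKM of Th, and samples 4 to 6 held 2.04 to 2.82 RPKM. The fractions did not overlap, as for 0.469% of the genes tested, although the highest SC GFP- value (1.99 RPKM, in sample 4, which also carried Mnx1) lay just under the lowest SC GFP+ value. The difference was 1.99 ± 0.49 (SE, limma adjusted p = 0.0412), and the exact permutation p of Th alone was 0.00216 with samples permuted freely and 0.03125 with the 6 pairs of fractions, each the smallest possible.

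Other cell markers moved with Th between the SC fractions, where 1.23% of all genes were called. Of 7 motor neuron markers 3 were higher in SC GFP+ (Isl1, Isl2 and Mnx1), and 5 of 6 endoderm markers were lower. The 7 motor neuron markers summed to 206.0 to 290.9 RPKM in SC GFP+ samples 1 to 3, where Th was highest, and to 57.1, 219.4 and 181.8 RPKM in samples 4 to 6. The 4 pluripotency markers summed to 14.3 to 712.0 RPKM in samples 1 to 3 and to 5088, 12385 and 1126 RPKM in samples 4 to 6, and none of the 4 was called between the fractions. The part of these cells in the Th difference was not tested.

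The Th call depended on the samples and on the processing. Of 10 alternatives that left out no single sample, 5 ended it: an offset of 0.1 RPKM (limma adjusted p = 0.112), sample quality weights (0.163), samples 1 to 4 alone (0.164), samples 5 and 6 alone (0.424) and a fit of the 12 SC samples alone (0.232). It was also lost when any one of 14 samples was left out (differences 1.72 to 2.21, limma adjusted p 0.0204 to 0.128 over all 24 omissions). These were OMN GFP+ samples 1, 2 and 6, OMN GFP- samples 1, 2 and 4, SC GFP+ samples 1, 2 and 3, and SC GFP- samples 1, 2, 3, 5 and 6. Without SC GFP+ sample 1, 2 or 3 the adjusted p was 0.106, 0.0855 and 0.128. Without SC GFP- samples 2 and 4 it was kept (2.18, adjusted p = 0.0410). In OMN GFP+ samples Th was 0 at the lowest, 2.12 at the median and 7.35 RPKM at the highest, with 111 of the 199 reads in sample 5 and none in sample 4. In OMN GFP- it was 0 at the lowest, 0.314 at the median and 1.77 RPKM at the highest, and 3 of 6 samples were listed at 0. The OMN groups overlapped, and their difference of 0.97 ± 0.49 (SE) did not pass (limma adjusted p = 0.309). Nor did the difference between OMN GFP+ and SC GFP+ (-1.14 ± 0.57 SE, adjusted p = 0.531), or the difference of the 2 steps (-1.02 ± 0.70 SE, adjusted p = 0.822). Between the GFP+ groups the sign of the Th difference depended on the samples, with -2.01 in samples 1 to 4 and 0.60 in samples 5 and 6.

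Ddc, the decarboxylase common to both pathways, was the one member detected in all 24 samples, and its level was higher in the spinal cultures without passing the test. The gene lies at chr11:11814101-11898144 on the minus strand, and since libraries did not mark strand, reads of the antisense gene 1700042O10Rik within it cannot be told apart. The lowest, median and highest levels were 2.08, 2.58 and 4.56 RPKM in OMN GFP+ and 2.43, 4.08 and 5.44 RPKM in OMN GFP-. They were 2.34, 6.45 and 15.3 RPKM in SC GFP+ and 3.43, 13.5 and 29.3 RPKM in SC GFP-. The OMN samples lay close together, whereas the SC samples spread widely and overlapped them. Ddc differed by -1.07 ± 0.40 (SE) between the GFP+ groups (limma adjusted p = 0.342) and by -1.33 ± 0.44 (SE) between the GFP- groups (adjusted p = 0.183). In SC GFP- the 3 highest Ddc values were in samples 1 to 3, at 20.0 to 29.3 RPKM, and samples 4 to 6 held 3.43 to 6.98 RPKM. The GFP- difference was -1.98 in samples 1 to 4 and -0.03 in samples 5 and 6.

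Endoderm markers stood beside Ddc in the spinal GFP- fraction. Their list (Sox17, Gata4, Gata6, Afp, Ttr and Cubn) summed to 4.08 to 276.1 RPKM in SC GFP-, 5.40 to 16.4 in OMN GFP-, 0.831 to 9.20 in SC GFP+ and 0 to 0.999 RPKM in OMN GFP+. Of the 6 markers, 5 were lower in SC GFP+ than in SC GFP- and 3 were lower in OMN GFP- than in SC GFP- (limma adjusted p under 0.05). Of all genes, 1.23% and 0.96% were called in these 2 comparisons. Sample by sample the 2 did not rank alike, since the highest endoderm sum (276.1 RPKM, SC GFP- sample 6) went with 6.98 RPKM of Ddc and the sum of 43.8 RPKM in sample 2 with 23.0 RPKM. The part of these cells in the Ddc level was not tested.

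**Figure D2:**
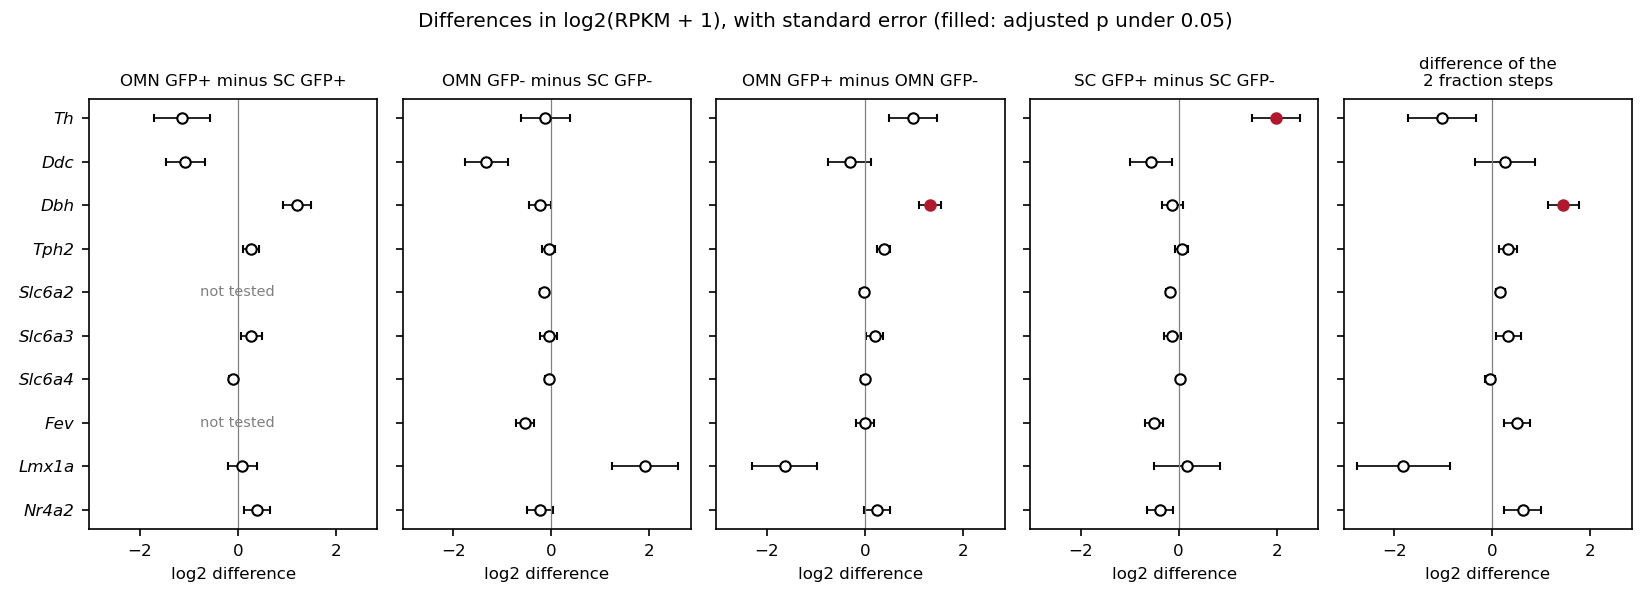
Differences in log2(RPKM + 1) of the 10 members in the 5 comparisons, with horizontal bars for the standard error from limma. Filled points passed an adjusted p of 0.05: Dbh in OMN GFP+ minus OMN GFP- (1.33) and in the difference of the steps (1.45), and Th in SC GFP+ minus SC GFP- (1.99). Slc6a2 and Fev could not be tested between the GFP+ groups.

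Among serotonin neuron genes, Tph2 was found in OMN GFP+ samples and in no OMN GFP- sample. The gene lies at chr10:115078641-115185022 on the minus strand. Its level in OMN GFP+ was 0 at the lowest, 0.301 at the median and 0.761 RPKM at the highest, with 3, 4, 14 and 13 reads in samples 1, 2, 5 and 6. All 6 OMN GFP- samples were listed at 0, where 3 reads would have stood for 0.168 to 0.772 RPKM, the highest in sample 4. In samples 5 and 6 this limit was 0.216 and 0.168 RPKM, under the 0.761 and 0.654 RPKM of OMN GFP+ samples 5 and 6. In samples 1 and 2 it was 0.359 and 0.244 RPKM, beside 0.224 and 0.377 RPKM in OMN GFP+ samples 1 and 2. The difference of 0.38 ± 0.13 (SE) did not pass (limma adjusted p = 0.0818), and the exact permutation p was 0.0606. It passed in 3 of 24 omissions of a sample, with limma adjusted p up to 0.200 over all 24. These were without OMN GFP+ sample 3 or 4, both listed at 0, or without SC GFP+ sample 6 (limma adjusted p = 0.0362, 0.0379 and 0.0344). Of 9 other alternatives it passed in 1, with sample quality weights (limma adjusted p = 0.000918), and the highest limma adjusted p was 0.369. In the spinal cultures Tph2 was found only in SC GFP+ sample 6, at 0.588 RPKM (13 reads), and in SC GFP- sample 5, at 0.246 RPKM (5 reads).

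The same 2 spinal samples held most of the reads of Slc6a4, the serotonin transporter, with 12 reads (0.345 RPKM) in SC GFP+ sample 6 and 11 reads (0.344 RPKM) in SC GFP- sample 5. No other sample had more than 2 reads of Slc6a4, a gene at chr11:76998603-77032340 that also overlaps the antisense gene Gm12343. Fev, the serotonin neuron factor at chr1:74881509-74885419, was listed at 0 in all 12 OMN samples. It reached 1.75 RPKM (20 reads) in SC GFP- sample 5, 1.48 RPKM (17 reads) in SC GFP- sample 6, 0.365 RPKM (1 read) in SC GFP- sample 2 and 0.161 RPKM (2 reads) in SC GFP+ sample 6. Fev differed by -0.54 ± 0.19 (SE) between the GFP- groups and by -0.50 ± 0.19 (SE) between the SC fractions, and neither passed (limma adjusted p = 0.222 and 0.278). In samples 5 and 6 alone these differences were -1.39 and -1.28 and passed (adjusted p = 0.00854 and 0.0110). SC GFP- sample 5 thus held reads of 9 of the 10 members, Slc6a2 being the one at 0, and 7 of them with at least 3 reads, the highest number of any sample. Its depth was 7052187 reads. SC GFP- sample 3, at 752529 reads, held 3 members, and SC GFP- sample 6, at 7095498 reads, also held 3. The part of depth in these numbers was not tested.

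These spinal samples also stood apart in markers of other cells. The 6 neural progenitor markers summed to 1490 RPKM in SC GFP+ sample 6, against 184.9 to 365.6 RPKM in the other SC GFP+ samples. They summed to 2589 and 1724 RPKM in SC GFP- samples 5 and 6, against 188.1 to 1237 RPKM in the other 4. The floor plate list summed to 163.3 RPKM in SC GFP+ sample 6 (9.61 to 50.9 RPKM in the other 5) and to 262.4 and 82.8 RPKM in SC GFP- samples 5 and 6 (12.6 to 61.8 RPKM in the other 4). The part of these cells in the Tph2, Slc6a4 and Fev reads was not tested.

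The transporters of noradrenaline and dopamine were at the limit of detection. Slc6a2, at chr8:92960079-93001667, was listed at 0 in all 12 GFP+ samples. In those samples 3 reads would have stood for 0.0621 to 0.337 RPKM, so that lower levels could have been missed at this depth. Its 12 reads lay in SC GFP- samples 1 to 4 (0.0748 to 0.469 RPKM) and in OMN GFP- sample 4 (1 read). Slc6a3, at chr13:73536747-73578672, was listed at 0 in all 6 SC GFP+ samples and reached 1.84 RPKM in OMN GFP+ sample 4, from 9 reads. Every other sample held at most 6 reads and 0.408 RPKM of Slc6a3. Neither transporter, nor Slc6a4, passed the test in any comparison (smallest limma adjusted p 0.231, for Slc6a2 in SC GFP+ minus SC GFP-, -0.19 ± 0.07 SE).

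Lmx1a, a dopamine progenitor factor that also acts in the roof plate, was high in 2 of 6 OMN GFP- samples. The gene lies at chr1:167689237-167848741 on the plus strand. Its level in OMN GFP- was 0 at the lowest, 2.04 at the median and 39.3 RPKM at the highest, and samples 5 and 6 (39.3 and 24.4 RPKM, from 643 and 515 reads) stood above the 2.98 RPKM or less of the other 4. Outside this group it did not exceed 1.73 RPKM, the highest value in OMN GFP+. The difference was 1.91 ± 0.67 (SE) between the GFP- groups (limma adjusted p = 0.228) and -1.64 ± 0.67 (SE) between OMN GFP+ and OMN GFP- (adjusted p = 0.173), and neither passed. In samples 5 and 6 alone, with 2 samples per group, they were 4.94 and -4.07 and passed (limma adjusted p = 0.00601 and 0.00493). In samples 1 to 4 alone they were 0.40 and -0.43 (limma adjusted p = 0.850 and 0.787). Without sample 5 the first was 1.28 and without sample 6 it was 1.42.

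Within OMN GFP- the summed level of the floor plate list was also highest in these 2 samples. The 8 genes of that list summed to 100.2 and 110.2 RPKM in OMN GFP- samples 5 and 6, against 16.9 to 48.8 RPKM in samples 1 to 4, although some SC samples were higher (up to 262.4 RPKM), and the 7 roof plate genes in the table summed to 7.64 and 6.69 RPKM against 2.41 to 3.91 RPKM. Wnt1, which belongs to the roof plate list and is also a signal of the midbrain-hindbrain boundary, was at 4.36 and 3.73 RPKM there. It made up the larger part of both roof plate sums and was at 0 to 1.03 RPKM in samples 1 to 4. Foxa2, which acts with Lmx1a in dopamine progenitors, was at 20.1 and 35.4 RPKM there and at 8.28 to 41.6 RPKM in the other 4. The part of these cells in the Lmx1a level was not tested. These samples were also the deepest of their group, and whether the number of the sample marks a separate preparation is not given in the labels. Th in the same 2 samples was at 1.40 and 1.77 RPKM, above the other OMN GFP- samples, and Slc6a3 at 0 and 0.0466 RPKM.

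Nr4a2, a nuclear receptor of dopamine neurons that is also induced as an immediate early gene, was detected in 23 of 24 samples and did not differ beyond the spread. Its gene lies at chr2:57106830-57124003 on the minus strand. The medians were 1.25 RPKM in OMN GFP+, 0.745 in OMN GFP-, 0.568 in SC GFP+ and 1.01 RPKM in SC GFP-, and all 4 groups overlapped. The largest of its 5 differences was that of the steps (0.62 ± 0.38 SE, limma adjusted p = 0.812). Of the 14 immediate early genes tested, 1 was called in OMN GFP+ minus OMN GFP-, near the 6.15% of all genes (Dusp1, a phosphatase that inactivates mitogen-activated protein kinases, 1.13 ± 0.29 SE, adjusted p = 0.0178) and none in the other 4 comparisons.

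Genes that act with the members were read from lists of the same pathways. Of 19 genes for synthesis, cofactor, storage and breakdown, 5 rose and none fell from OMN GFP- to OMN GFP+. In that comparison 6.15% of all genes were called, and the list median was -0.05 beside 0.00 over all genes. These 5 were Slc18a2 (the vesicular monoamine transporter VMAT2, 21.3 ± 12.5 against 1.73 ± 0.719 RPKM, mean ± SD, n = 6), Cyb561 (the vesicle cytochrome that regenerates ascorbate for Dbh, 18.9 ± 5.34 against 2.27 ± 0.997 RPKM), Gch1 (which starts the synthesis of the tetrahydrobiopterin cofactor, 7.79 ± 3.29 against 1.64 ± 0.879 RPKM), Tph1 (the other tryptophan hydroxylase, 0.918 ± 0.697 against 0.0762 ± 0.0892 RPKM) and Slc29a4 (a low-affinity monoamine transporter, 24.9 ± 18.1 against 2.55 ± 1.80 RPKM). In that order their log2 differences were 2.90, 2.61, 1.66, 0.75 and 2.69 (limma adjusted p = 0.000529, 1.02e-05, 0.0210, 0.00519 and 0.0135).

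Cyb561 was the one gene of that list called between OMN GFP+ and SC GFP+, where 0.603% of all genes were (18.9 ± 5.34 against 3.32 ± 0.899 RPKM, log2 difference 2.18 ± 0.27 SE, limma adjusted p = 0.00140). It was also the one called in the difference of the steps, where 0.32% of all genes were (2.16 ± 0.45 SE, adjusted p = 0.0278). Its OMN GFP+ samples did not overlap the OMN GFP- samples, as was the case for 6.52% of the genes tested. They did not overlap the SC GFP+ samples either, for which the share over all genes was not computed. Slc18a1 (VMAT1, the vesicular transporter of endocrine cells) was the one gene of the list called between the SC fractions, where 1.23% of all genes were. It was lower in SC GFP+ (0.0485 ± 0.0867 RPKM) than in SC GFP- (0.691 ± 0.534 RPKM, log2 difference -0.64 ± 0.15 SE, adjusted p = 0.0243). It was also lower in OMN GFP- (0.0739 ± 0.0983 RPKM) than in SC GFP- (-0.61 ± 0.15 SE, adjusted p = 0.0461).

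**Figure D3:**
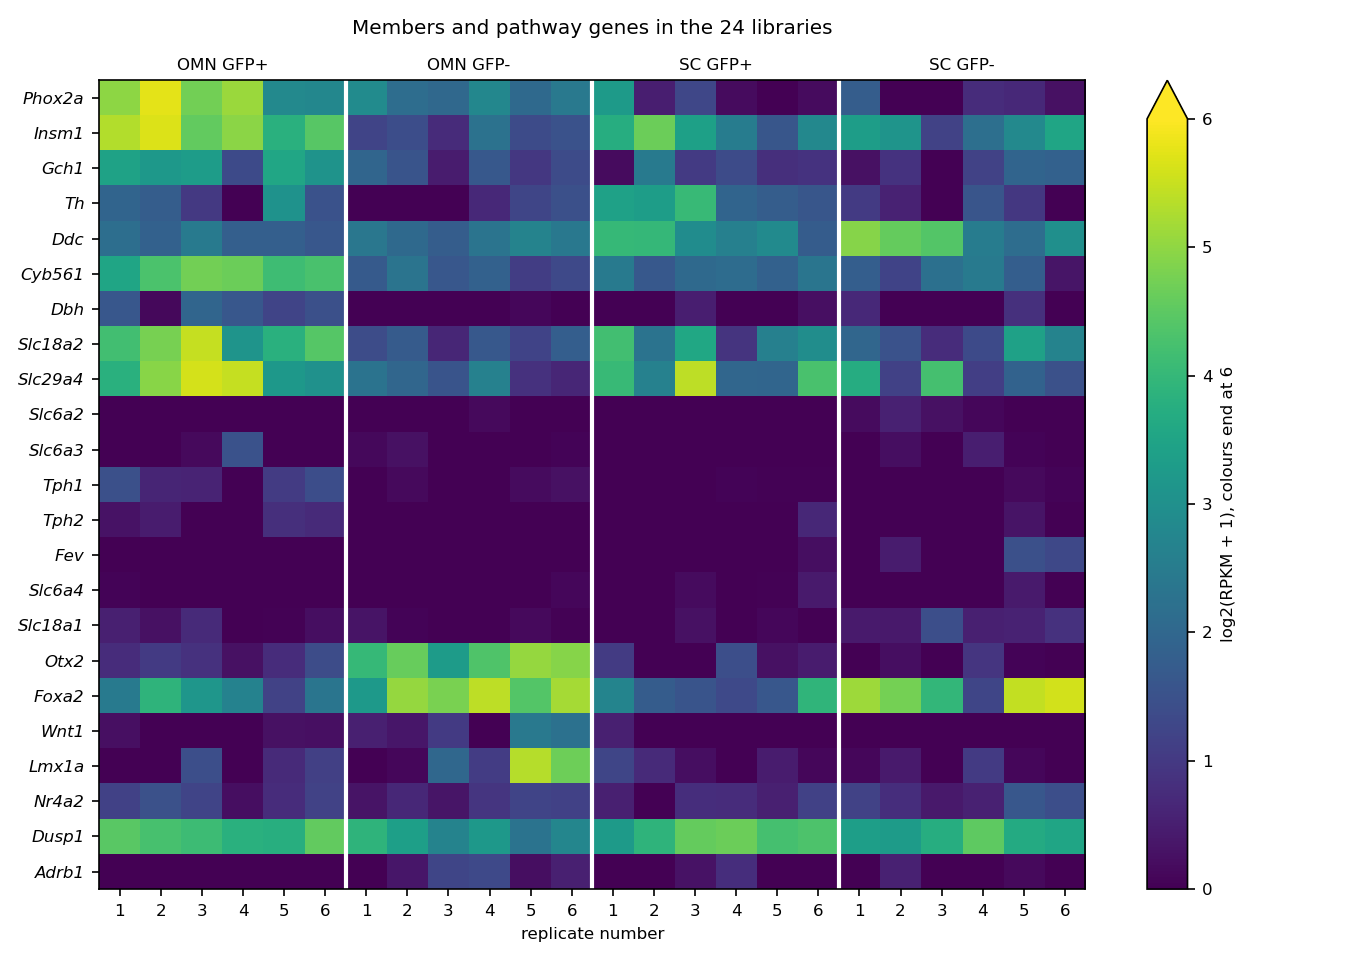
Levels of the 10 members and of 13 pathway genes called in at least 1 comparison in the 24 samples (columns, by group and sample number), coloured by log2(RPKM + 1) with the scale ending at 6. Cyb561, Slc18a2 and Insm1 are high across OMN GFP+, where Dbh is detected, while the rows of Slc6a2, Slc6a3, Slc6a4 and Fev are dark in nearly all samples.

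Of 16 transcription factors of monoamine neurons compared, 2 rose and 2 fell from OMN GFP- to OMN GFP+, where 6.15% of all genes were called. Phox2a was at 25.7 ± 18.0 RPKM (SD, n = 6) in OMN GFP+ and 4.39 ± 1.44 RPKM in OMN GFP- (log2 difference 1.97 ± 0.54 SE, limma adjusted p = 0.0288), and reads of the transgene could be part of its value in both OMN fractions. Insm1, a factor of neuroendocrine and newborn neurons, was at 29.3 ± 13.7 and 1.83 ± 1.06 RPKM (3.37 ± 0.45 SE, adjusted p = 3.74e-05). The 2 that fell were Otx2, which sets forebrain and midbrain identity (0.844 ± 0.467 against 21.3 ± 8.74 RPKM, -3.53 ± 0.33 SE, adjusted p = 1.89e-07), and Foxa2 (6.18 ± 4.38 against 27.4 ± 11.9 RPKM, -2.06 ± 0.62 SE, adjusted p = 0.0470).

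Between OMN GFP+ and SC GFP+ 1 of 15 such factors tested was called, where 0.603% of all genes were. This was Phox2a, higher in OMN (25.7 ± 18.0 against 1.78 ± 3.38 RPKM, 3.46 ± 0.66 SE, limma adjusted p = 0.0317). No factor of the list was called between the SC fractions. Between the GFP- groups Otx2 was the one called, where 0.96% of all genes were (21.3 ± 8.74 against 0.186 ± 0.356 RPKM, 4.17 ± 0.33 SE, adjusted p = 4.83e-08). Of 23 monoamine receptors tested Adrb1 (a beta-adrenergic receptor) alone passed, in OMN GFP+ minus OMN GFP-, where 6.15% of all genes did (listed at 0 in all 6 samples against 0.632 ± 0.647 RPKM, -0.62 ± 0.19 SE, adjusted p = 0.0482). Of 7 roof plate genes Wnt1 passed in that comparison (0.0936 ± 0.103 against 1.64 ± 1.90 RPKM, -0.97 ± 0.28 SE, adjusted p = 0.0416), and of 8 floor plate genes none passed in any.

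The calls of these pathway genes differed in how they held when single samples were left out. Those of Insm1, Otx2, Slc18a2, Slc29a4, Cyb561 and Tph1 in OMN GFP+ minus OMN GFP- were kept in all 24 omissions, as were those of Cyb561 between the GFP+ groups in all 12 and of Otx2 between the GFP- groups in all 24. In OMN GFP+ minus OMN GFP- the call was lost in 1 omission for Dusp1 (without OMN GFP- sample 5), 2 for Gch1 (without OMN GFP+ sample 5 or OMN GFP- sample 3), 8 for Phox2a, 10 for Wnt1, 17 for Foxa2 and 20 for Adrb1, with adjusted p from limma of up to 0.124. Phox2a lost its call between the GFP+ groups in 8 of 12 omissions. Slc18a1 lost its call in 17 omissions between the GFP- groups and in 3 between the SC fractions. In the difference of the steps Cyb561 lost its call in 9 of 24 omissions.

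Other alternatives ended some of these calls too. In OMN GFP+ minus OMN GFP- the calls of Cyb561, Slc18a2, Insm1 and Otx2 held in all 10, while Slc29a4 lost its call in 2 of 10 (limma adjusted p up to 0.110), Tph1 in 1 of 9 (0.127), Gch1 in 2 of 10 (0.249), Dusp1 in 2 of 10 (0.300), Foxa2 in 2 of 10 (0.324), Wnt1 in 3 of 9 (0.272) and Adrb1 in 4 of 9 (0.188). The Phox2a difference between the OMN fractions fell from 1.97 to 0.56 with samples 5 and 6 alone and lost its call in 2 of 10 (adjusted p up to 0.433). Between the GFP+ groups Cyb561 lost its call in 2 of 9 (adjusted p up to 0.113) and Phox2a in 3 of 9 (0.0974). Slc18a1 lost its call in 4 of 9 between the GFP- groups (adjusted p up to 0.461) and in 3 of 9 between the SC fractions (0.427).

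Noradrenergic cells of the sympathetic lineage also express Dbh. Of the 6 markers listed for that lineage and its neural crest origin, Hand1, Hand2 and Sox10 were listed at 0 in all 6 OMN GFP+ samples. Foxd3 and Insm2 did not exceed 0.584 and 0.882 RPKM there. Chga, a protein of secretory granules in many neuroendocrine cells and neurons, was at 31.6 ± 16.7 RPKM (SD, n = 6) in OMN GFP+ and 2.35 ± 2.08 RPKM in OMN GFP- (log2 difference 3.31 ± 0.58 SE, limma adjusted p = 0.000769) and was the 1 of the 6 called in that comparison. The summed level of the list, which in OMN GFP+ was almost all Chga, was 16.1 to 52.4 RPKM in OMN GFP+ and 0.840 to 7.28 in OMN GFP-. It was 3.77 to 40.7 in SC GFP+ and 0.435 to 12.5 RPKM in SC GFP-. OMN GFP+ sample 2, with 1 read of Dbh, held 18.7 RPKM of Cyb561 and 26.2 RPKM of Slc18a2, within the range of the other 5 for each.

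Genes with the most similar profiles were found for the 4 members above 0 in at least 12 samples, as Pearson's r of log2(RPKM + 1) over 24 samples among 15205 genes. For Th they were Tmem178 (r = 0.79), Hecw2 (0.78) and Hdx (0.77), and for Ddc they were Moxd1 (r = 0.86), Cyp26b1 (0.85) and Gbx1 (0.83). For Lmx1a they were Dkk2 (r = 0.91), Sp5 (0.89) and Adamts5 (0.88), and for Nr4a2 they were Ctso (r = 0.79), Itm2b (0.74) and Bag2 (0.73). The 24 samples fall into 4 groups of differing depth, so that these values are descriptions and carry no test. Moxd1 encodes a copper monooxygenase related to Dbh, and Cyp26b1 an enzyme that degrades retinoic acid.

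**Figure D4:**
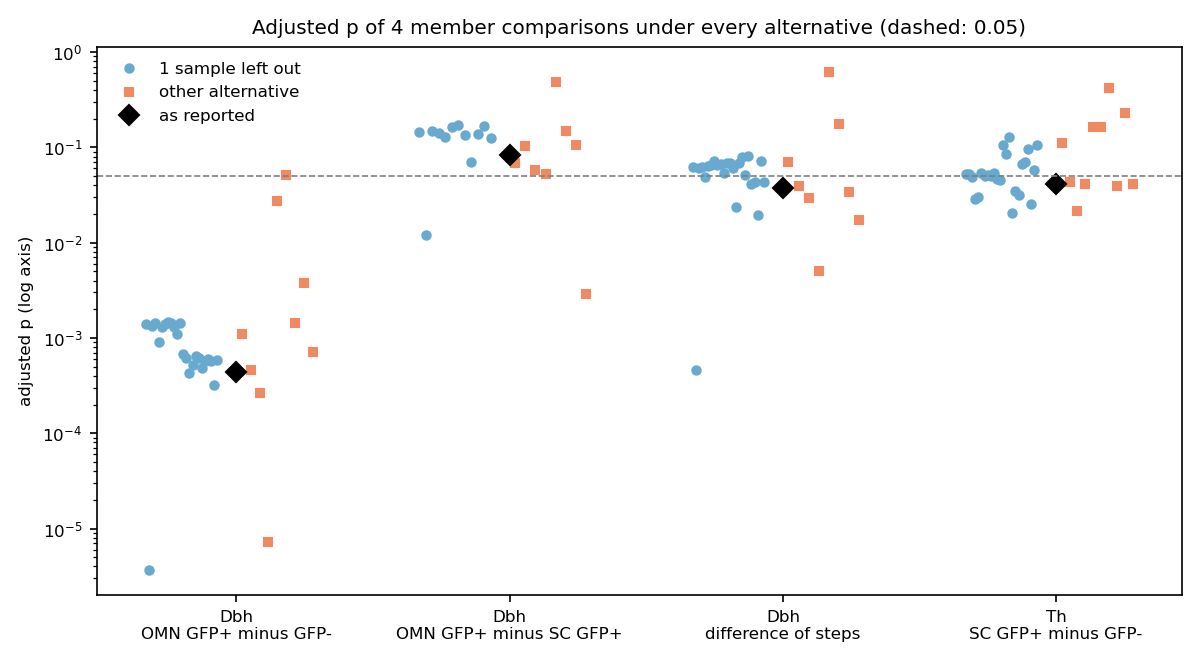
Adjusted p (log axis) of 4 member comparisons as reported (diamonds), with 1 sample left out (circles) and under the other alternatives (squares), with the threshold of 0.05 dashed. Dbh in OMN GFP+ minus OMN GFP- stays under the threshold in all 24 omissions, while the other 3 lie on both sides of it.

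Over all alternatives, Dbh in OMN GFP+ minus OMN GFP- kept its direction in each of 33 fits, with adjusted p from limma of 3.66e-06 to 0.00145 over the 24 omissions of a sample. Over the other 9 alternatives it was 7.27e-06 to 0.0513, the last with samples 5 and 6 alone. With the pairing of the fractions of one culture as a block the value was 0.00142. Under a filter of at least 1 RPKM in 6 samples Dbh was not tested.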

How the data were processed

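Bulk poly(A) libraries (SMART-seq2, unstranded, no molecular identifiers) of 24 sorted samples were analysed, 6 in each of 4 groups named by the labels. According to the submitters' processing notes and the methods, the authors mapped reads to mm10 (GRCm38) with HISAT2 2.0.3 and computed the deposited RPKM with rpkmforgenes. The gene annotation is not given in the sources used here. RPKM are not counts, so no count test was run. The notes also list DESeq2 1.12.4, which the authors used and which was not run here.

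RPKM were compared as log2(RPKM + 1) with limma 3.58.1 in R 4.3.3 (trended moderated variances, Benjamini-Hochberg over all genes tested). Adding 1 RPKM makes differences of low genes smaller than they are. A gene entered a fit when at least 2 samples in it were above 0. The GFP+ groups were fitted on their own 12 samples and everything else on all 24. Single members were also compared by exact two-sided permutation tests, between fractions also over pairs (added after seeing the data). Python 3.11.15, pandas 2.3.3, scipy 1.17.1 and matplotlib 3.10.9 were used. The fits were also run on simulated data, in which only genes with a mean log2(RPKM + 1) over 1 were changed. Genes as low as Dbh and most other members were therefore not covered by it.

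Depth (752529 to 7675428 reads) was recovered from values under 10 reads of 5911 genes with 1 transcript in GENCODE M21, and in each sample 95.8% to 97.8% of these were a whole read number to within 2%. Member reads used the union of the exons of each gene model, and a level of 0 was read against a limit of 3 reads.

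The fractions of a culture with the same number were taken as pairs, since their deviations from the group means correlated in 6 of 6 pairs (r = 0.379 to 0.728 in OMN and 0.421 to 0.661 in SC, over 11952 genes). The block for pairs was an alternative, with the offset, filter, scaling, weights, sample sets and omission of single samples. Members and lists were chosen with earlier results of these data known. All members are named. Listed genes are named where called in at least 1 comparison, or where a level beside a member is described, chosen after its values were seen. For each member above 0 in at least 12 samples the 3 genes with the highest r are named. Pitx3, Drd3, Htr2a, Htr4, Adra1d, Egr3 and Gdf7 were listed and not analysed here, and 1 more listed gene is not reported here.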

Additional observations from a re-analysis of the deposited data

Results flagged for a closer look

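Some member values stood apart within their group of 6 by Dixon's criterion at the 95% level, the gap to the nearest sample over the whole range, which chance exceeds in about 1 of 20 groups. Where 5 of 6 samples are listed at 0, any read meets this. These were Dbh in OMN GFP- sample 5 (0.0770 RPKM, 1 read), Slc6a2 in OMN GFP- sample 4 (0.118 RPKM, 1 read), and Slc6a4 in OMN GFP+ sample 1 (0.0475 RPKM, 1 read) and OMN GFP- sample 6 (0.0711 RPKM, 2 reads). Fev in SC GFP+ sample 6 (0.161 RPKM, 2 reads) was of the same kind.

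The larger ones were Slc6a3 in OMN GFP+ sample 4 (1.84 RPKM, 9 reads), Tph2 in SC GFP+ sample 6 (0.588 RPKM, 13 reads), and Tph2 and Slc6a4 in SC GFP- sample 5 (0.246 RPKM, 5 reads, and 0.344 RPKM, 11 reads). The last 3 fall in the 2 spinal samples that hold most of the Slc6a4 reads. For these 3 the other 5 samples of the group were also listed at 0, so that any read would have met the criterion.

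The step between fractions differed between the cultures (oculomotor minus spinal, limma interaction) for Dbh (1.45, adjusted p = 0.0370), Cyb561 (2.16, adjusted p = 0.0278), Insm1 (2.94, adjusted p = 0.0391) and Otx2 (-3.86, adjusted p = 5.01e-05). When single samples were left out, the call was kept in all 24 omissions for Otx2 and lost in 9 for Cyb561, 17 for Insm1 and 17 for Dbh. Of the other alternatives, 3 of 8 ended the call for Dbh, 3 of 9 for Cyb561, 2 of 9 for Insm1 and none of 9 for Otx2.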

How the results depend on the processing

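The number of members called was 0 between the GFP+ groups and became 1 (Dbh) in the fit of all 24 samples, with 0 to 1 when single samples were left out. It was 0 between the GFP- groups and became 2 (Fev and Lmx1a) with samples 5 and 6 alone, with 0 to 0 in the omissions. In OMN GFP+ minus OMN GFP- it was 1 and became 0 under the filter of at least 1 RPKM in 6 samples, since Dbh was not tested, and 3 (Th, Dbh and Tph2) with sample quality weights, with 1 to 2 in the omissions. In SC GFP+ minus SC GFP- it was 1 and became 0 with an offset of 0.1 RPKM, with weights, with samples 1 to 4 alone and with only the 12 samples compared, with 0 to 1 in the omissions. For the difference of the steps it was 1 and became 0 with the offset of 0.1 RPKM, under the filter of at least 1 RPKM and with samples 1 to 4 alone, with 0 to 1 in the omissions. With samples 5 and 6 alone the 1 member called was Lmx1a in OMN GFP+ minus OMN GFP- and in the difference of the steps, and Fev in SC GFP+ minus SC GFP-. The cause was not tested.

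One direction reversed, that of Th between the GFP+ groups (0.60 with samples 5 and 6 alone, adjusted p = 0.674). Leaving out SC GFP- samples 2 and 4, chosen after seeing the data, changed no call of a member. The replicate block for pairs of fractions changed none either (1, 1 and 1 members in the 3 comparisons with a fraction step, 0 in the 2 between cultures), while over all genes it gave 3644 calls in place of 1364, 649 in place of 272 and 453 in place of 71. The labels do not say whether the same sample number in the 2 cultures marks a shared preparation. Deviations of same-numbered samples correlated at r = -0.175 to 0.707 between the GFP+ groups and -0.0386 to 0.612 between the GFP- groups. In each, r was over 0.1 in 4 of 6 pairs, and a sample correlated most with its own number in 1 and 2 of 6. Between cultures the block gave 73 calls in place of 116 and 563 in place of 213. At this depth a level under 3 reads, 0.0621 to 2.47 RPKM depending on gene and sample, could be missed, although single reads were listed for some members.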
